A study of Mus musculus with 9 samples.

Results

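The genes described here are the α-arrestins Txnip, Arrdc4, Arrdc1, Arrdc2 and Arrdc3 and the glucose-sensing transcription factors Mlxip (MondoA), Mlxipl (ChREBP) and Mlx, 8 of the 56691 genes of the deposited table, chosen by gene symbol. The set was proposed with results of these libraries already known, the comparisons of the 3 groups included. The values of its members between the 3 groups are therefore given as a description, with standard errors and without p-values. Of the 8 genes, 7 were expressed at an FPKM (reads scaled to the length of the exons and to the library total) of at least 1 in at least 3 libraries and entered the fit across 11995 genes. Arrdc4 entered through the control and RANKL + UD libraries alone, and Mlxipl did not enter.

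α-Arrestins are adaptor proteins that bring ubiquitin ligases of the NEDD4 family to membrane proteins, which are then internalized. TXNIP, the best known member, also binds thioredoxin through a cysteine and limits glucose uptake by removing glucose transporters from the cell surface, and ARRDC4 is its closest relative with a similar action on glucose uptake. MondoA and ChREBP respond to glucose-6-phosphate, pair with MLX and bind carbohydrate response elements, which are built from pairs of E-box-like sites. Txnip and Arrdc4 are among the best known targets of these factors.

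RAW264.7 is a mouse macrophage line that forms osteoclast-like cells under RANKL, the cytokine that drives osteoclast formation. The groups were untreated control cells, cells stimulated with RANKL, and cells given RANKL with uridine (UD), each with 3 libraries from cells cultured for 3 days. All libraries came from the same immortalized line, and the UD concentration of these libraries is not given in the sources used here. Total counts ranged from 15951800 to 19746862 reads per library. Arrdc4 had 32 to 307 reads in a library and Txnip 2327 to 21452, so a single read in Arrdc4 is a larger share of its value. Of 9 macrophage markers, 8 stood at an FPKM of at least 1 in every library of every group, with a summed FPKM of 8982 to 9583 in control, 2494 to 2730 under RANKL and 2165 to 2303 under RANKL + UD. Lyz2 made up 86.6% to 87.5% of this sum in control, and without it, a choice made after the data were seen, the other 8 markers summed to 1129 to 1283, 1120 to 1209 and 920 to 1004, so control and RANKL overlapped. Of the 8 tested, 6 fell in RANKL against control at an adjusted p under 0.05 by edgeR, where 30.2% of all genes tested did. Cd68 and Spi1 rose, where 27.3% of all genes did, from a mean FPKM of 549 to 782 and from 82.6 to 121. In RANKL + UD against RANKL, 6 fell, 1 rose and 1 did not pass, where 20.2% and 18.6% of all genes fell and rose. The 10 osteoclast markers summed to 55.4 to 58.2 in control, 2673 to 2876 under RANKL and 1689 to 1726 under RANKL + UD, with Calcr at 0 in control. The 11 markers of other cell types, among them Cd3e, Alb and Hba-a1 at 0 in every group, summed to at most 0.41. Osteoclast markers thus moved with the groups and macrophage markers moved in both directions, and their part in the values below was not tested. In bulk RNA, fewer cells of a type and less RNA per cell cannot be told apart.

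Txnip was by far the most abundant of the 8 genes and the one with the widest swing in FPKM. It had 329.7, 347.9 and 339.9 FPKM in the control libraries, 39.5, 38.5 and 41.3 under RANKL, and 195.9, 202 and 205 under RANKL + UD. The 3 groups did not overlap, and the RANKL + UD libraries stood between the low RANKL and the high control libraries. The mean was 339 ± 9.09 in control, 39.8 ± 1.41 under RANKL and 201 ± 4.6 under RANKL + UD (SD, n = 3 each). Txnip was the gene with the 90th highest FPKM among the 11995 in control, the 1167th under RANKL and the 184th under RANKL + UD. After TMM scaling it was 8.02-fold lower under RANKL than in control (standard error 0.0487 on the log2 scale). With RANKL + UD it was 4.75-fold higher than under RANKL (log2 fold change 2.25, standard error 0.0476) and 1.69-fold lower than in control (log2 fold change -0.75, standard error 0.0447). Txnip (ENSMUSG00000038393, chromosome 3, 96465273 to 96469199, plus strand) is overlapped along its whole length by Gm15441 on the opposite strand. The Gm15441 row held 52, 55 and 40 reads in control, 4, 8 and 11 under RANKL and 3, 23 and 13 under RANKL + UD, against 2327 to 21452 reads for Txnip. Whether counting used the strand is not given in the sources used here.

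Arrdc4 was likewise lowest under RANKL, at a far lower level than Txnip throughout, and its RANKL + UD libraries overlapped the control libraries. Its FPKM was 3, 3.85 and 3.14 in control, 0.45, 0.41 and 0.46 under RANKL, and 3.63, 2.98 and 3.63 under RANKL + UD. These values rest on 204, 307 and 202 reads in control, 36, 32 and 36 under RANKL, and 288, 196 and 253 under RANKL + UD. The RANKL libraries lay below all others, and the other groups overlapped. The mean was 3.33 ± 0.456 in control, 0.44 ± 0.0265 under RANKL and 3.41 ± 0.375 under RANKL + UD (SD, n = 3 each). Arrdc4 was 7.08-fold lower under RANKL than in control (log2 fold change -2.82, standard error 0.171) and 7.25-fold higher under RANKL + UD than under RANKL (log2 fold change 2.86, standard error 0.17). Against control, RANKL + UD differed by 0.04 on the log2 scale (standard error 0.134), a value that lay between -0.03 and 0.15 over 18 alternative settings. When the 11995 genes were ordered by their change from RANKL to RANKL + UD, Arrdc4 was 20th and Txnip 31st from the top, and in RANKL against control Txnip was 112th and Arrdc4 127th from the bottom. Both genes were chosen with these comparisons known, and Arrdc4 passed the filter only through the groups where it was high. The ranks are therefore a description, from which nothing is read. Arrdc4 (ENSMUSG00000042659) lies on chromosome 7, 68386743 to 68398989, minus strand.

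**Figure D1:**
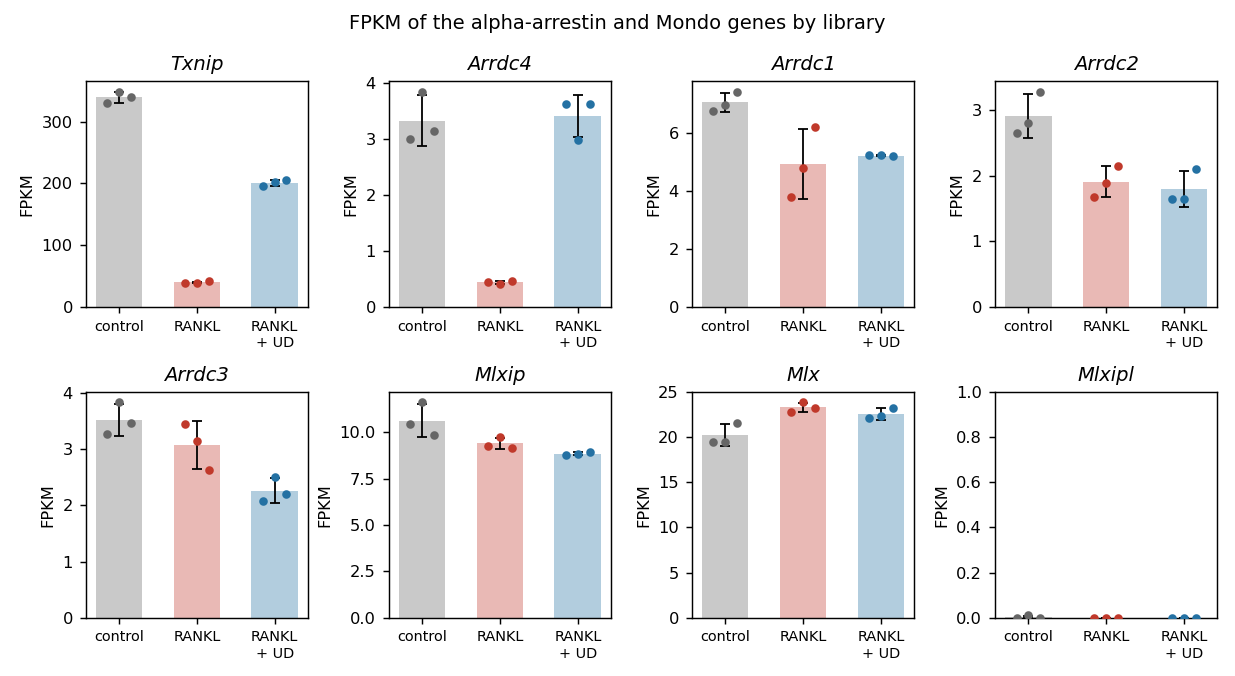
FPKM (y axis, linear from 0, a separate scale per gene) of the 8 genes in the 3 libraries of each group, with points for libraries, bars for means and error bars for the SD. Txnip lay between 38.5 and 41.3 under RANKL against at least 195.9 in every other library, Arrdc4 between 0.41 and 0.46 against at least 2.98, and Mlxipl stayed at or near 0.

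The levels of these genes thus differed in how far RANKL + UD stood from control. Mean Txnip was 11.7% of its control mean under RANKL and 59.3% under RANKL + UD, while mean Arrdc4 was 13.2% and 103% (FPKM, n = 3 each). The ratio of Txnip to Arrdc4 FPKM within a library, which does not depend on how libraries are scaled to each other, was 110, 90.4 and 108 in control, 87.4, 94 and 89 under RANKL, and 54, 67.9 and 56.5 under RANKL + UD. All 3 RANKL + UD libraries were below the other 6, and the control and RANKL libraries overlapped. The mean ratio was 103 ± 10.9 in control, 90.1 ± 3.46 under RANKL and 59.5 ± 7.4 under RANKL + UD (SD, n = 3 each).

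**Figure D2:**
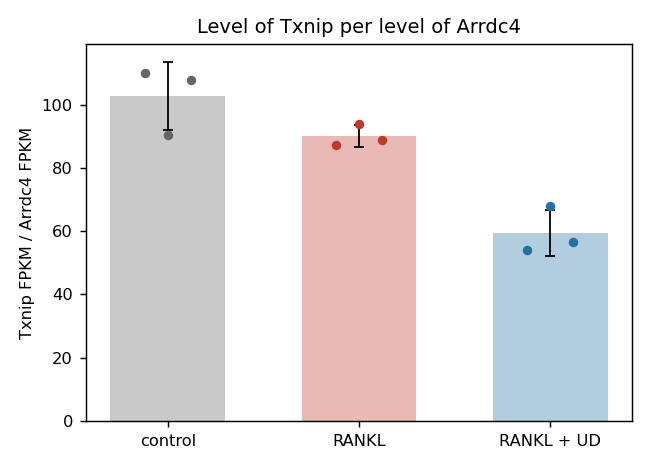
Txnip FPKM divided by Arrdc4 FPKM (y axis, no unit, from 0) in each library, with points for libraries, bars for group means and error bars for the SD. The RANKL + UD libraries lie between 54 and 67.9 and the other 6 libraries between 87.4 and 110.

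The sequences just before both genes are shown because carbohydrate response elements are the sites through which these factors act. RefSeq promoter windows of GRCm38.p6, from 250 bases before to 50 bases after each annotated start, were found for all 8 genes, in 11 windows. They were searched on both strands for the E-box CACGTG and for paired sites, in which each site is CACGNG or CNCGTG and 5 bases lie between them. Capitals below mark paired sites, E-boxes and the CCAAT box (CCAAT or, on the other strand, ATTGG), which is the binding sequence of NF-Y and was added after the sequences had been seen. Each sequence runs 5′ to 3′ on the strand of the gene and ends at the base before the start.
Txnip (chr3:96557707-96557956, plus strand): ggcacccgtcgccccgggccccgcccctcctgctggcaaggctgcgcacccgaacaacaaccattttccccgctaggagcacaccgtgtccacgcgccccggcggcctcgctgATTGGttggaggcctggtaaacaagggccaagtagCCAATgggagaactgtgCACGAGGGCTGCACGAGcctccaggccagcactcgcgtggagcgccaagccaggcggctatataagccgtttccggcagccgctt
Arrdc4 (chr7:68749239-68749488, minus strand): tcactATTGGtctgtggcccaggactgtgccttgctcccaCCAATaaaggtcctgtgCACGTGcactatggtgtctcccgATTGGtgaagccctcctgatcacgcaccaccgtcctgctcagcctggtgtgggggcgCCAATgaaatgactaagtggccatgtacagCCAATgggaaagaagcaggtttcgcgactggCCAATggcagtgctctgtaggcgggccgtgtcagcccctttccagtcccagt
The Txnip window held the paired sites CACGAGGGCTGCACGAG, 85 to 69 bases before the start (chromosome 3, 96557872 to 96557888, GRCm38.p6). Such a pair was present in 27 of 32851 promoter windows (0.0822%), and in the set of 8 genes it was found for Txnip. The Arrdc4 window held no such pair but an E-box 193 to 188 bases before the start and 6 CCAAT boxes. An E-box was present in 7.15% of all windows and at least 6 CCAAT boxes in 0.0791%. Txnip had 2 CCAAT boxes, a number reached by 11.7% of windows. The Mlx window held 1 E-box. Of the Mlxipl windows on chromosome 5, that from base 135089640 held 1 E-box and that from base 135106641 held 0. A match is a stretch of letters and does not show that a factor bound there, and the absence of a match concerns these 300 bases only.

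The remaining α-arrestins varied far less. Arrdc1, which takes part in the budding of vesicles from the plasma membrane, had 6.79, 6.98 and 7.44 FPKM in control, 3.8, 4.8 and 6.23 under RANKL and 5.25, 5.25 and 5.21 under RANKL + UD. Both stimulated groups were below control, and the RANKL libraries spread around the RANKL + UD libraries. Its log2 fold change was -0.43 in RANKL against control (standard error 0.135) and between -0.16 and 0.20 over the 18 alternative settings in RANKL + UD against RANKL. Arrdc2, an adaptor of the same kind, had 2.65, 2.8 and 3.28 FPKM in control, 1.68, 1.89 and 2.15 under RANKL and 1.64, 1.65 and 2.11 under RANKL + UD. Again both stimulated groups were below control and overlapped each other, with a log2 fold change of -0.52 (standard error 0.159) in RANKL against control and -0.17 (standard error 0.166) in RANKL + UD against RANKL. Arrdc3, which controls the traffic of β-adrenergic receptors, had a different order of groups. Its FPKM was 3.27, 3.83 and 3.46 in control, 3.45, 3.15 and 2.62 under RANKL and 2.07, 2.51 and 2.21 under RANKL + UD, so the RANKL + UD libraries were below the other 6, which overlapped. The log2 fold change of Arrdc3 was -0.53 (standard error 0.115) in RANKL + UD against RANKL, opposite in sign to Txnip and Arrdc4. Arrdc5, the α-arrestin outside the set, had 0 reads in every library.

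Summed over the 5 α-arrestins, the FPKM was 345 to 365 in control, 48.8 to 52.8 under RANKL and 209 to 218 under RANKL + UD. Txnip made up 95.2% to 95.5% of this sum in control, 78.3% to 80.8% under RANKL and 94% to 94.2% under RANKL + UD. The family total therefore followed Txnip in every library.

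Transcripts of the factors that act on Txnip moved little compared with Txnip itself. Mlxip, the gene of MondoA, had 10.4, 11.6 and 9.86 FPKM in control, 9.29, 9.75 and 9.18 under RANKL and 8.8, 8.81 and 8.94 under RANKL + UD. The groups did not overlap, in falling order, but the differences were small, with a log2 fold change of -0.09 (standard error 0.0603) in RANKL against control and -0.17 (standard error 0.0608) in RANKL + UD against RANKL. Mlx, the partner shared by MondoA and ChREBP, was the most abundant of the factors with 19.5, 19.5 and 21.6 FPKM in control, 22.8, 23.8 and 23.2 under RANKL and 22, 22.3 and 23.2 under RANKL + UD. It was higher in both stimulated groups than in control, by 0.29 (standard error 0.0692) and 0.16 (standard error 0.0697) on the log2 scale, and the stimulated groups overlapped. A stretch of 385 bases of Mlx overlaps Psmc3ip on the opposite strand, which had 133 to 212 reads against 656 to 920 for Mlx. Mlxipl, the gene of ChREBP, which is known from liver and fat, had 1 read in 1 control library and 0 in the other 8. Each library thus lay below a floor of 3 reads, which corresponds to an FPKM of at most 0.034 in a single library. The order of levels by FPKM was Txnip, Mlx, Mlxip, Arrdc1, Arrdc3, Arrdc4 and Arrdc2 in control, where the ranges of Arrdc3, Arrdc4 and Arrdc2 overlapped. With RANKL Arrdc4 was last of these 7, and under RANKL + UD it stood above Arrdc3 and Arrdc2, whose ranges overlapped.

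**Figure D3:**
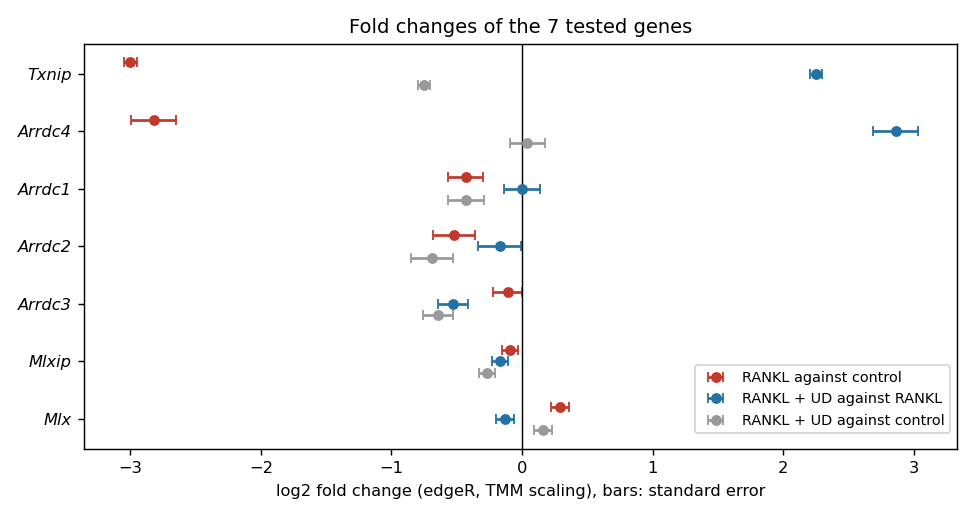
Log2 fold change (x axis) of the 7 tested genes (y axis) in the 3 comparisons, which share libraries, with bars for the standard error derived from the test statistic. Txnip and Arrdc4 lie beyond 2 in size in both comparisons with the RANKL group, and the other 5 genes lie between -0.69 and 0.29.

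At an adjusted p under 0.05 by edgeR, Txnip, Arrdc4, Arrdc1 and Arrdc2 were lower and Mlx was higher in RANKL against control, 4 and 1 of 7 tested, where 30.2% and 27.3% of the 11995 genes were, 57.6% in all. In RANKL + UD against RANKL, Txnip and Arrdc4 were higher and Arrdc3 and Mlxip were lower, 2 and 2 of 7, where 18.6% and 20.2% of all genes were, 38.8% in all. In RANKL + UD against control, 5 of 7 were lower and 0 higher, where 27.3% and 26.7% of all genes were, 54% in all. This 0 was 1 at an unadjusted p under 0.05, 0 with DESeq2 and 1 with limma on log2(FPKM + 1), the 1 being Mlx. Since the set was chosen with these comparisons known, nothing is read from these counts. By FPKM alone, 5 of the 7 genes lay lower and 1 higher without overlap in RANKL against control, where 38.8% and 22.9% of all genes did, 61.7% in all. For RANKL + UD against RANKL these numbers were 2 lower and 2 higher, where 17.6% and 34.1% of all genes did, 51.7% in all. For RANKL + UD against control they were 5 lower and 1 higher, where 30.4% and 29.5% of all genes did, 59.9% in all. The balance of all genes depended on the scaling of libraries: 48% of called genes were higher in RANKL + UD against RANKL and 47.5% in RANKL against control, and with total counts in place of TMM these shares were 66.2% and 36.8%. The call of Mlxip in RANKL + UD against RANKL was lost without RANKL replicate 2 (log2 fold change -0.15) and without any one of the 3 RANKL + UD libraries (-0.17, -0.17 and -0.18). The call of Arrdc1 in RANKL against control was lost without RANKL replicate 1, where its log2 fold change was -0.27.

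The other genes of the pathway were taken from 6 lists of 74 genes and tested in the same fit. These lists were chosen with earlier results of these data known. Their counts, medians and adjusted p-values are therefore given as a description. The first list held 25 genes that ChREBP or MondoA are known to act on, mainly from liver, of which 16 were tested. Between RANKL and RANKL + UD, 6 rose, 6 fell and 4 did not pass, with a median log2 fold change of 0.08 (0.16 with total counts) against 0.00 over all genes tested, of which 18.6% rose and 20.2% fell. In RANKL against control, 9 rose and 6 fell, with a median of 0.27 (0.18 with total counts) against -0.03 over all genes, of which 27.3% rose and 30.2% fell. Gpi1, which fell in RANKL + UD against RANKL, lost its call with total counts and with limma, and the other calls of this list held in all 18 alternatives. With total counts, 9 genes of the list rose and 5 fell in RANKL + UD against RANKL, against 3350 and 1707 of the 11995 genes. The list thus held changes in both directions. Klf10, a zinc-finger repressor induced by TGF-β and by glucose, had a mean FPKM of 15.4 ± 0.364 in control, 6.49 ± 1.08 under RANKL and 15.5 ± 0.208 under RANKL + UD (SD, n = 3 each). It rose by 1.17 on the log2 scale in RANKL + UD against RANKL (standard error 0.087, edgeR adjusted p = 1.57e-09). The fatty acid elongase Elovl6 went from 12.3 ± 0.107 to 4.88 ± 0.19 and 10.3 ± 1.44 FPKM (SD, n = 3 each), a rise of 0.99 in the same comparison (edgeR adjusted p = 6.04e-09). Malic enzyme 1 (Me1), which supplies NADPH, was higher under RANKL than in control and highest under RANKL + UD. Its mean FPKM was 4.4 ± 0.853 in control, 6.26 ± 0.207 under RANKL and 11.6 ± 0.227 under RANKL + UD (SD, n = 3 each). The log2 fold change was 0.80 in RANKL + UD against RANKL (edgeR adjusted p = 2.16e-06). Scd1, a fatty acid desaturase, fell by 1.17 under RANKL. The fatty acid synthesis genes Fasn and Acaca were 0.50 and 0.35 higher in RANKL + UD against RANKL on the log2 scale (edgeR adjusted p = 1.62e-06 and 1.97e-05). Acly and Scd2 of the same list differed by 0.02 and 0.03 in that comparison (edgeR adjusted p = 0.834 and 0.608). Under RANKL these 2 genes rose, by 0.24 and 0.31.

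Other genes of the same list moved the opposite way. Rgs16, a regulator of G-protein signaling, went from 1.22 ± 0.168 FPKM in control to 28 ± 0.912 under RANKL and 14 ± 0.408 under RANKL + UD (SD, n = 3 each). Rgs16 had a log2 fold change of 4.61 in RANKL against control and -1.09 in RANKL + UD against RANKL (edgeR adjusted p = 5.08e-19 and 6.67e-10). Bhlhe40, a repressor that binds E-boxes, rose by 2.10 under RANKL and fell by 0.73 in RANKL + UD against RANKL (edgeR adjusted p = 1.62e-17 and 2.22e-09). Pklr, G6pc, Fgf21 and Pnpla3 had 0 reads in every library, Thrsp had at most 2 in any, and Acacb and Gpd1 were below the expression filter.

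Of 18 sugar carriers and enzymes around glucose-6-phosphate, the metabolite that MondoA senses, 15 were tested. From RANKL to RANKL + UD, 9 fell and 1 rose, with a median log2 fold change of -0.22 (-0.14 with total counts) against 0.00 over all genes tested, where 20.2% and 18.6% of all genes fell and rose. Of the 9, 6 held in all 18 alternatives, and Gpi1, Hk1 and Slc2a8 were lost with total counts and in some others. The call of Hk1 was also lost without RANKL replicate 1 or 3 (log2 fold change -0.14 and -0.12) and without RANKL + UD replicate 1 or 3 (-0.10 and -0.14). Slc2a1, the glucose transporter GLUT1, which TXNIP removes from the cell surface, had a mean FPKM of 34.8 ± 1.93 in control, 61.2 ± 3.71 under RANKL and 39.1 ± 3.43 under RANKL + UD (SD, n = 3 each). It rose by 0.90 on the log2 scale under RANKL and fell by 0.73 in RANKL + UD against RANKL (edgeR adjusted p = 6.27e-11 and 9.24e-09). Hexokinase 3 (Hk3) went from 21.7 ± 0.832 to 34 ± 1.72 and 17.2 ± 0.232 FPKM (SD, n = 3 each) and fell by 1.06 in RANKL + UD against RANKL (edgeR adjusted p = 1.14e-11). Hexokinase 2 (Hk2), which makes glucose-6-phosphate, rose by 0.72 under RANKL and fell by 0.51 in RANKL + UD against RANKL (edgeR adjusted p = 8.35e-08 for the latter). The glucose-6-phosphate carrier Slc37a4 fell by 0.63 and the intracellular sugar carrier Slc2a8 by 0.54 in that comparison. The call of Slc2a8 was lost without RANKL replicate 1 (log2 fold change -0.49) and without RANKL + UD replicate 1 or 2 (log2 fold change -0.53 and -0.54), with total counts (-0.45) and with no FPKM filter (-0.53), and its RANKL + UD libraries, at 0.9 to 0.94 FPKM, lay below the filter. G6pdx, which draws glucose-6-phosphate into the pentose phosphate pathway, was the gene that rose, from 35.1 ± 2.3 to 44.2 ± 1.48 FPKM (SD, n = 3 each), by 0.25 on the log2 scale (edgeR adjusted p = 0.00165). In RANKL against control, 7 rose and 5 fell, where 27.3% and 30.2% of all genes did. The calls of these 7 and 5 genes held in the 18 alternatives. Their list had a median of 0.09 (0.00 with total counts) against -0.03 over all genes tested. Called genes included Pgm1 with a log2 fold change of 1.29, the carrier Slc2a6 with -2.13 and the urate carrier Slc2a9 with -0.98. Slc2a4 and Slc2a5 did not pass the filter.

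**Figure D4:**
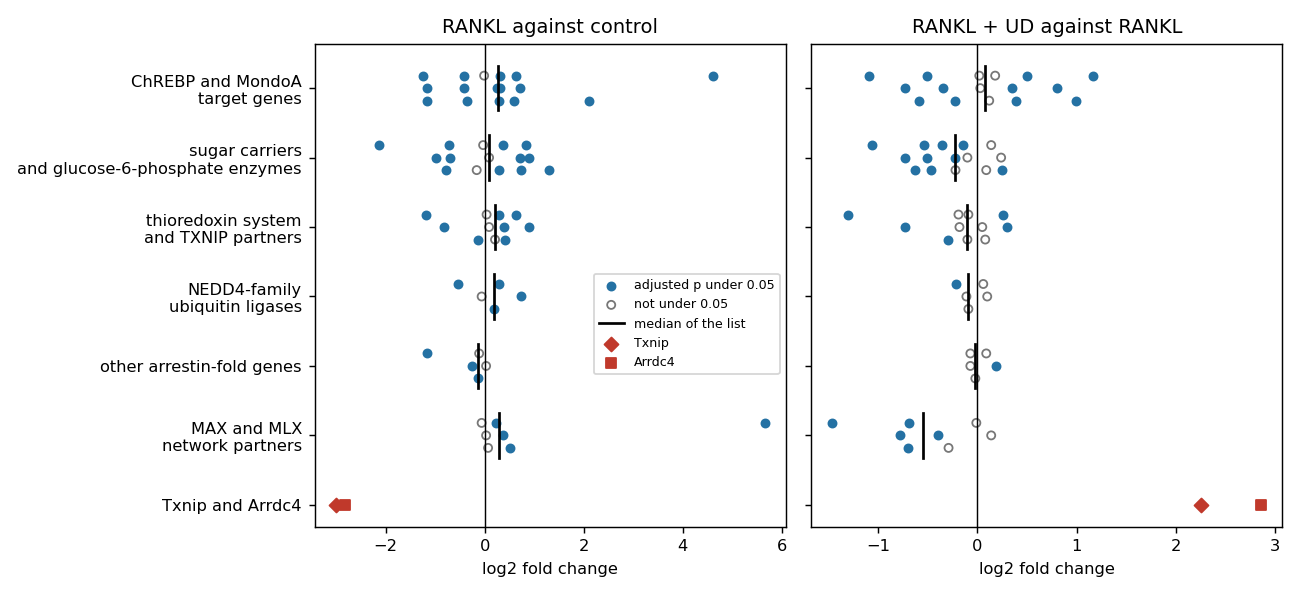
Log2 fold change (x axis) of the tested genes of the 6 lists (y axis) in RANKL against control and in RANKL + UD against RANKL, filled where the adjusted p was under 0.05, with a line at each list's median and Txnip and Arrdc4 below. Mycl is left out of the first panel since its control libraries were at 0 reads, and the MAX and MLX network has its median at -0.55 in the second.

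MLX and the MAX family share partners, and 8 of 9 genes of this network were tested. Of these, 5 fell and 0 rose in RANKL + UD against RANKL, with a median of -0.55 against 0.00 over all genes tested, of which 20.2% fell and 18.6% rose. In RANKL against control, 5 rose and 0 fell, with a median of 0.30 against -0.03 over all genes, of which 27.3% rose and 30.2% fell. Myc and Mycl, below an FPKM of 1 in every control library, entered the fit through the stimulated groups alone. In this comparison they could therefore count only as genes that rose. Both counts of 0 from edgeR were also 0 at an unadjusted p under 0.05, with DESeq2 and with limma, but with total counts 1 gene rose in RANKL + UD against RANKL. In that comparison Mxd4 lost its call with limma at either pseudocount (log2 fold change -0.25 and -0.31). The rise of Mnt under RANKL was lost with total counts (0.14), with limma, and without control replicate 1 or 2 (0.21 and 0.17) or RANKL replicate 1 or 2 (0.19 and 0.22). Mnt and Mxd4, repressors that pair with MLX as well as MAX, fell by 0.69 and 0.40 in RANKL + UD against RANKL (edgeR adjusted p = 1.45e-06 and 0.00281). Mxd1, which also pairs with both, went from 1.75 ± 0.154 in control to 2.33 ± 0.165 under RANKL and 1.44 ± 0.125 under RANKL + UD (FPKM, SD, n = 3 each) and fell by 0.78 in the same comparison (edgeR adjusted p = 2.29e-05). Mxi1 fell by 0.70 (edgeR adjusted p = 6.13e-08). Myc, the growth factor-responsive activator that pairs with MAX, had 0.767 ± 0.0551 FPKM in control, 36.3 ± 1.14 under RANKL and 14 ± 0.797 under RANKL + UD (SD, n = 3 each), a fall of 1.46 in RANKL + UD against RANKL (edgeR adjusted p = 1.59e-12). Mycl had 0 reads in control and a mean FPKM of 1.61 under RANKL, at least 37.6-fold higher when 3 reads per control library are taken as the floor. Max itself stood at 31.8 ± 1.04, 30.5 ± 1.83 and 32 ± 2.23 FPKM in the 3 groups, and Mxd3 did not pass the filter.

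Of 11 genes of the thioredoxin system and partners of TXNIP, all tested, 2 rose and 3 fell in RANKL + UD against RANKL, with a median of -0.10 against 0.00 over all genes tested, of which 18.6% rose and 20.2% fell. Thioredoxin (Txn1), the redox protein that TXNIP binds, had 118 ± 11.2 FPKM in control, 118 ± 2.7 under RANKL and 154 ± 16.2 under RANKL + UD (SD, n = 3 each), a rise of 0.30 on the log2 scale (edgeR adjusted p = 0.00224). Txnip FPKM was thus above that of Txn1 in the control and RANKL + UD libraries and below it under RANKL. The mitochondrial peroxidase Prdx3 rose by 0.26 (edgeR adjusted p = 0.00101). Ddit4, a stress-induced brake on mTOR whose protein binds TXNIP, fell by 1.30 (edgeR adjusted p = 5.69e-05). Nlrp3, the inflammasome sensor, fell by 0.82 under RANKL and by 0.30 in RANKL + UD against RANKL (edgeR adjusted p = 1.07e-09 and 0.00182). The third gene of this list that fell was Slc2a1, given above. The median with total counts was -0.01. Against control, RANKL gave 5 that rose and 3 that fell, where 27.3% and 30.2% of all genes did. Of these, Ddit4 lost its call without control replicate 2 (log2 fold change 0.52), and Prdx1 with no FPKM filter, in the 6 libraries alone and without control replicate 1 or 2 (-0.12 and -0.13) or RANKL replicate 1 or 2 (-0.11 and -0.10). The largest change was that of Map3k5, the kinase ASK1 that thioredoxin restrains, which fell by 1.18 (edgeR adjusted p = 9.38e-10).

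Of 9 NEDD4-family ubiquitin ligases, which α-arrestins recruit, 5 were tested and Nedd4, Nedd4l, Hecw1 and Hecw2 were below the filter. Wwp2 fell by 0.21 in RANKL + UD against RANKL (edgeR adjusted p = 0.00965) and the other 4 did not pass. With total counts and with limma Wwp2 did not pass either, at -0.13 with total counts. Itch, the ligase that ubiquitinates TXNIP, rose by 0.30 under RANKL (edgeR adjusted p = 8.95e-05) and differed by -0.09 between RANKL + UD and RANKL (adjusted p = 0.221). Smurf1 rose by 0.73 and Wwp1 fell by 0.54 under RANKL. In all, 3 ligases rose there and 1 fell, where 27.3% and 30.2% of all genes did, but the rise of Wwp2 (0.19) was lost with total counts (0.10), with limma, and without control replicate 2 (0.13) or RANKL replicate 2 (0.17). The median of the 5 ligases was 0.19 in RANKL against control and -0.09 in RANKL + UD against RANKL, and -0.00 in the latter with total counts. Of the 6 other arrestin-fold genes, 5 were tested, with 3 that fell under RANKL, where 30.2% of all genes did, and a median of -0.14 (-0.23 with total counts) against -0.03 over all genes. Their median in RANKL + UD against RANKL was -0.02 and, with total counts, 0.06. β-Arrestin 2 (Arrb2) fell by 1.17 under RANKL (edgeR adjusted p = 1.50e-13), from 49.8 ± 1.35 to 20.8 ± 0.435 FPKM, with 21.7 ± 1.45 under RANKL + UD (SD, n = 3 each), while β-arrestin 1 (Arrb1) rose by 0.19 in RANKL + UD against RANKL (edgeR adjusted p = 0.00423). The retromer subunits Vps26a and Vps26b fell by 0.14 and 0.25 under RANKL, and the call of Vps26a was lost without control replicate 1 or 3 or RANKL replicate 2 (log2 fold change -0.13, -0.13 and -0.11), with no FPKM filter (-0.13) and in the 6 libraries alone (-0.12).

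The genes whose pattern was most like that of Txnip were found by Pearson's r of TMM-scaled log2 CPM over the 9 libraries. Since the libraries form 3 groups, r follows the order of the 3 group means and is given as a description. The 5 genes with the highest r were Ccna2 (0.997), F730043M19Rik (0.995), Nek2 (0.994), Cgas (0.993) and Ncapg (0.993). Their change was smaller than that of Txnip, and F730043M19Rik came closest with a mean FPKM of 6.71 in control, 1.34 under RANKL and 4.09 under RANKL + UD. For Arrdc4 they were Kpna2 (0.993), Psrc1 (0.992), Rexo5 (0.991), Aaas (0.989) and Msh6 (0.988), none of them among the 5 of Txnip. Kpna2, an importin, had a mean FPKM of 70.6 in control, 40.7 under RANKL and 73.6 under RANKL + UD. Txnip and Arrdc4 had r = 0.964 with each other, which placed Arrdc4 117th among the genes most like Txnip.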

How the data were processed

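Poly(A)-selected RNA of 9 RAW264.7 libraries (control, RANKL and RANKL + UD, 3 each) was sequenced. The authors deposited raw read counts per gene and FPKM in one table of 56691 genes. The submitters' processing notes name the build mm10. The aligner, counter and annotation are not given in the sources used here. Of 52073 genes shared with a GRCm38 annotation, 1435 had identical coordinates in the deposited table. The deposited coordinates of all 8 genes differ from that annotation, so both sets are named apart. The deposited FPKM were recovered from the deposited counts, gene lengths and library totals.

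The 11995 genes that reached 1 FPKM in 3 or more libraries were tested on the counts with edgeR 4.0.16 (quasi-likelihood test, TMM scaling, all 9 libraries in one fit, Benjamini-Hochberg adjustment, adjusted p under 0.05) in R 4.3.3. The test was also run on simulated counts in which few genes changed, equally up and down. Scaling of libraries under changes as wide as those here was therefore not checked. Standard errors were computed as the absolute log2 fold change divided by the square root of the F statistic of this test. Nothing in the labels says that libraries of a group came from separate cultures, so p-values measure the spread between these libraries only. Total counts were 15951800 to 19746862, and floors of 3 counts cover counting error only.

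The 8 genes, the pathway lists and the markers were chosen with earlier results of these data known. Named pathway genes are up to 4 per list and comparison with the largest absolute log2 fold change among those called, and those that missed the filter, of which some are not reported here. Fasn, Acaca, Acly, Scd2, Hk2, G6pdx and Max were named after their values had been seen. Alternatives were DESeq2 1.42.0, limma 3.58.1 on log2(FPKM + 1) or log2(FPKM + 0.1), other scaling and filters, the groups compared alone, a replicate block and each library left out. Promoters are RefSeq windows of GRCm38.p6. Protein sequences were not analysed here.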

Additional observations from a re-analysis of the deposited data

How the results depend on the processing

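No log2 fold change of the 7 tested genes that was called changed its sign under the 18 alternatives. Txnip lay between -3.09 and -2.98 in RANKL against control and between 2.23 and 2.34 in RANKL + UD against RANKL, and Arrdc4 between -2.91 and -1.58 and between 1.61 and 2.95, with the ends nearest 0 from limma on log2(FPKM + 1), where a pseudocount shrinks low genes. In RANKL + UD against RANKL, the number of the 7 genes called lower was 1 in place of 2, Mlxip being lost, with no FPKM filter, with total counts and with limma at either pseudocount, and 1 to 2 when each library was left out. In RANKL + UD against control, the number called higher was 1 in place of 0, Mlx being gained, with limma at either pseudocount, and 0 to 1 when each library was left out, the 1 without control replicate 3. In RANKL against control, Mlxip was gained as lower with total counts, with limma and without control replicate 3.

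Over all genes, RANKL + UD against RANKL gave 3350 genes higher with total counts against 2233 with TMM, and 1556 and 1536 genes lower with limma on log2(FPKM + 1) and log2(FPKM + 0.1) against 2418. Genes of the 6 lists called higher were 17 with total counts against 10. Total counts moved the median of all genes to -0.12 in RANKL against control and 0.09 in RANKL + UD against RANKL, from -0.03 and 0.00. Same-numbered libraries correlated by -0.0194 to 0.0984 in their deviations from the group means. These values cannot tell whether such libraries shared a culture or batch, and the labels give only a number. With the replicate block, 2347 genes were higher and 2518 lower in RANKL + UD against RANKL, 3346 and 3694 in RANKL against control, and the same members were called. At these depths Mlxipl and genes at a few reads could not be compared.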

Other observations

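Paired sites of the kind found before Txnip were present in promoter windows of 26 genes, of which 13 were expressed and tested. Without Txnip, 2 of the other 12 rose in RANKL + UD against RANKL, Rbmxl1 by 0.47 and Rbbp4 by 0.13 on the log2 scale, and Zfp607b, Fnip1 and Crybg3 fell, with a median log2 fold change of 0.06 against 0.00 over all genes tested, of which 18.6% rose and 20.2% fell. In RANKL against control, 4 rose and 2 fell, with a median of -0.00 against -0.03, where 27.3% and 30.2% of all genes did. The genes were listed by sequence, and those named were the called ones in the first comparison.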
